A study of Mus musculus with 18 samples.

Results

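NF-kB is the transcription factor family that turns on adhesion molecules, chemokines and survival genes in inflamed endothelium. The 9 genes described here encode its subunits and proteins that regulate it. The subunits are Nfkb1, Nfkb2, Rela and Relb, and the classical inhibitors are Nfkbia, Nfkbib and Nfkbie. Nfkbiz is an atypical member of the inhibitor family, and Tnfaip3 is a ubiquitin-editing enzyme that shuts off the signal further upstream. They were chosen by name, and all 9 were found among the 16248 genes of the expression table. Each was expressed well enough to be tested in every comparison.

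Subunits bind DNA as dimers. Nfkb1 and Nfkb2 encode precursor proteins that are trimmed to DNA-binding subunits, while Rela and Relb carry the activation domain. In resting cells, IkB proteins mask the dimers in the cytoplasm until a kinase complex marks the IkB for degradation. Several of the inhibitors are themselves NF-kB target genes, so their transcripts rise when the factor is active, which is known as negative feedback. STING, a sensor of cyclic dinucleotides, signals to interferon regulatory factors and also to NF-kB.

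The transcripts were measured by bulk RNA-seq of endothelial cells (ECs), sorted as live CD45-/CD31+ cells from mice of the FVB strain. Wild-type female mice gave normal ECs, sorted from the mammary fat pad, and their age was not given in the sources used here. Spontaneous tumour ECs came from female MMTV-PyMT mice, described as 9 weeks old at treatment, in which a mammary tumour virus promoter drives a viral oncogene in the mammary epithelium. Implanted tumour ECs came from wild-type female FVB mice that had received cultured tumour cells of MMTV-PyMT mice in the fat pad at 8 to 9 weeks of age. No group carried a deleted allele. Each tissue was injected locally with PBS or with cGAMP, a cyclic dinucleotide that activates STING, and was collected 3 h later. There were 6 groups with 3 libraries each (18 libraries), with 3 mice per group from 3 independent experiments stated in a legend. Which library belonged to which experiment was not stated, so p-values measure the spread between these libraries. Values are FPKM, that is, fragments per kilobase of gene length divided by a scaling factor of each library, so levels can be compared between genes. These factors were not proportional to the total reads of the libraries.

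The 18 libraries held between 9184658 and 12200551 whole reads, recovered from the FPKM values. A list of 10 endothelial markers, with Pecam1, Cdh5 and Kdr among them, summed to between 771 and 1874 FPKM per library. No value of any gene in the table was 0, so a level above 0 sets no marker apart. Markers of other cell types were read by their sums as well. Epithelial markers (7 genes, such as Epcam and Krt8) summed to between 994 and 1084 FPKM in MMTV-PyMT PBS libraries against 342 to 435 FPKM in normal PBS libraries. Mural and fibroblast markers (8 genes) summed to between 825 and 936 FPKM in normal PBS libraries and to between 309 and 361 FPKM in MMTV-PyMT PBS libraries. Leukocyte markers (9 genes in the table of 10 listed) stayed between 21.3 and 77.3 FPKM in 17 libraries and reached 264 FPKM in implanted cGAMP 2. The defining leukocyte marker Ptprc lay between 0.156 and 9.73 FPKM. The part of these cells in the results below was not tested. In bulk samples, fewer cells of a type and less RNA per cell cannot be told apart.

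In the GENCODE annotation of mm10, Nfkb1 lies at chr3:135584655-135691547 (minus strand), Nfkb2 at chr19:46304320-46312385 (plus strand), Rela at chr19:5637483-5648130 (plus strand) and Relb at chr7:19606217-19629438 (minus strand). Of the other members, Nfkbia lies at chr12:55489410-55492647 (minus strand), Nfkbib at chr7:28758251-28767512 (minus strand), Nfkbie at chr17:45555703-45563169 (plus strand), Nfkbiz at chr16:55811375-55838899 (minus strand) and Tnfaip3 at chr10:19000910-19015657 (minus strand). The values below sum reads over the exons of each gene.

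Promoter sequence was examined because several members moved together with cGAMP, as described below. RefSeq promoter windows of 300 bases (250 before and 50 after a transcription start, mouse build GRCm38.p6) were found for 6 of the 9 genes, namely Nfkb2, Rela, Nfkbia, Nfkbib, Nfkbie and Tnfaip3. Both strands were searched for the motif GGGANNTTCC and for a wider 10-base kB consensus. The consensus allows more bases at some positions. It requires A or T at a position where the motif allows any base, so it does not include every match of the motif. Of all 32851 windows, 1.47% held the first and 4.51% the second. Windows of Nfkb2, Nfkbia, Nfkbie and Tnfaip3 held the wider consensus, and those of Rela and Nfkbib did not. The matches are printed with their flanks on the strand of the gene, with the matching bases in capitals. These letters describe the window, not a bound site. In the Nfkb2 window of its most upstream start, 2 matches overlap by all but 1 base and are shown as 1 run of capitals. In the same window, 1 more match is shown after it.
Nfkbia, chr12:55492657-55492686, minus strand, outside annotated transcripts: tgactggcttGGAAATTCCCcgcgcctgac
Nfkbie, chr17:45555584-45555613, plus strand, outside annotated transcripts: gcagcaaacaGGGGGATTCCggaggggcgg
Tnfaip3, chr10:19015403-19015432, minus strand, exon of Tnfaip3: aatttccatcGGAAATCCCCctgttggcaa
Tnfaip3, chr10:19015516-19015545, minus strand, intron of Tnfaip3: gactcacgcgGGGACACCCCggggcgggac
Nfkb2, chr19:46304688-46304717, plus strand, exon of Nfkb2 and of AC114539.1: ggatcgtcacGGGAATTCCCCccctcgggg
Nfkb2, chr19:46304716-46304745, plus strand, exon of Nfkb2 and of AC114539.1: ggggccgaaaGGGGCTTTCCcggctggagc
Nfkb2, chr19:46305449-46305478, plus strand, exon of AC114539.1: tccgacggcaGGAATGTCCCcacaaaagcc
Nfkb2, chr19:46305695-46305724, plus strand, exon of Nfkb2: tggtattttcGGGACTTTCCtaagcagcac

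The Nfkbia match lay 20 bases before its start, counted to the nearest matching base, and it fitted the narrower motif. The Nfkbie match began 106 bases before the start. Of the 2 Tnfaip3 matches, 1 ended 3 bases before the start, and the window of a second annotated start held none. Nfkb2 held the narrower motif in the windows of 2 of its 3 starts. Of the genes without a match, Rela rose in each tissue after cGAMP, as did the 4 genes with one, while the change of Nfkbib passed the test in implanted tumour ECs and not in the other tissues.

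In the PBS-injected tissues, the order of levels was set by a few genes. Nfkbia was the most abundant member in every group and Nfkbiz followed it in every group but implanted cGAMP. Nfkbia, the main IkB that ends a burst of NF-kB activity, measured 166, 168 and 209.6 FPKM in the 3 normal PBS libraries, 142, 96.6 and 93.04 FPKM in MMTV-PyMT PBS and 178, 166 and 179.8 FPKM in implanted PBS. All MMTV-PyMT libraries thus lay below the other PBS libraries, although MMTV-PyMT PBS 1 stood apart from the others of its group, and normal and implanted libraries overlapped. The order of mean levels under PBS in normal ECs was Nfkbia, Nfkbiz, Rela, Nfkb2, Nfkb1, Tnfaip3, Nfkbie, Relb and Nfkbib, with the first 50.9-fold above the last. Of these neighbours, Nfkbie and Relb overlapped between libraries and the others did not. In MMTV-PyMT PBS libraries, Tnfaip3 with Nfkb1, Nfkb1 with Nfkb2, Relb with Nfkbib and Nfkbib with Nfkbie overlapped, and Nfkbie was last. In implanted PBS libraries, Nfkb2 with Tnfaip3, Tnfaip3 with Nfkb1 and Nfkb1 with Nfkbie overlapped. With cGAMP, the order in the implanted tumour became Nfkbia, Nfkbie, Tnfaip3, Nfkbiz, Rela, Nfkb2, Nfkb1, Relb and Nfkbib, in which Nfkbie, Tnfaip3, Nfkbiz and Rela each overlapped with the next of them, and Nfkb2 overlapped with Nfkb1. By its mean over the 18 libraries, Nfkbia ranked 90 of 16248 genes and Nfkbib 6236. Rela was the most abundant subunit, at 25.1 ± 0.872, 26.02 ± 1.56 and 28.1 ± 0.659 FPKM (mean ± SD, n = 3) in normal, MMTV-PyMT and implanted PBS libraries. Relb, the subunit of the non-canonical pathway, was the least abundant of the 4 at 6.53 ± 0.545, 6.03 ± 0.772 and 8.31 ± 0.406 FPKM.

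**Figure D1:**
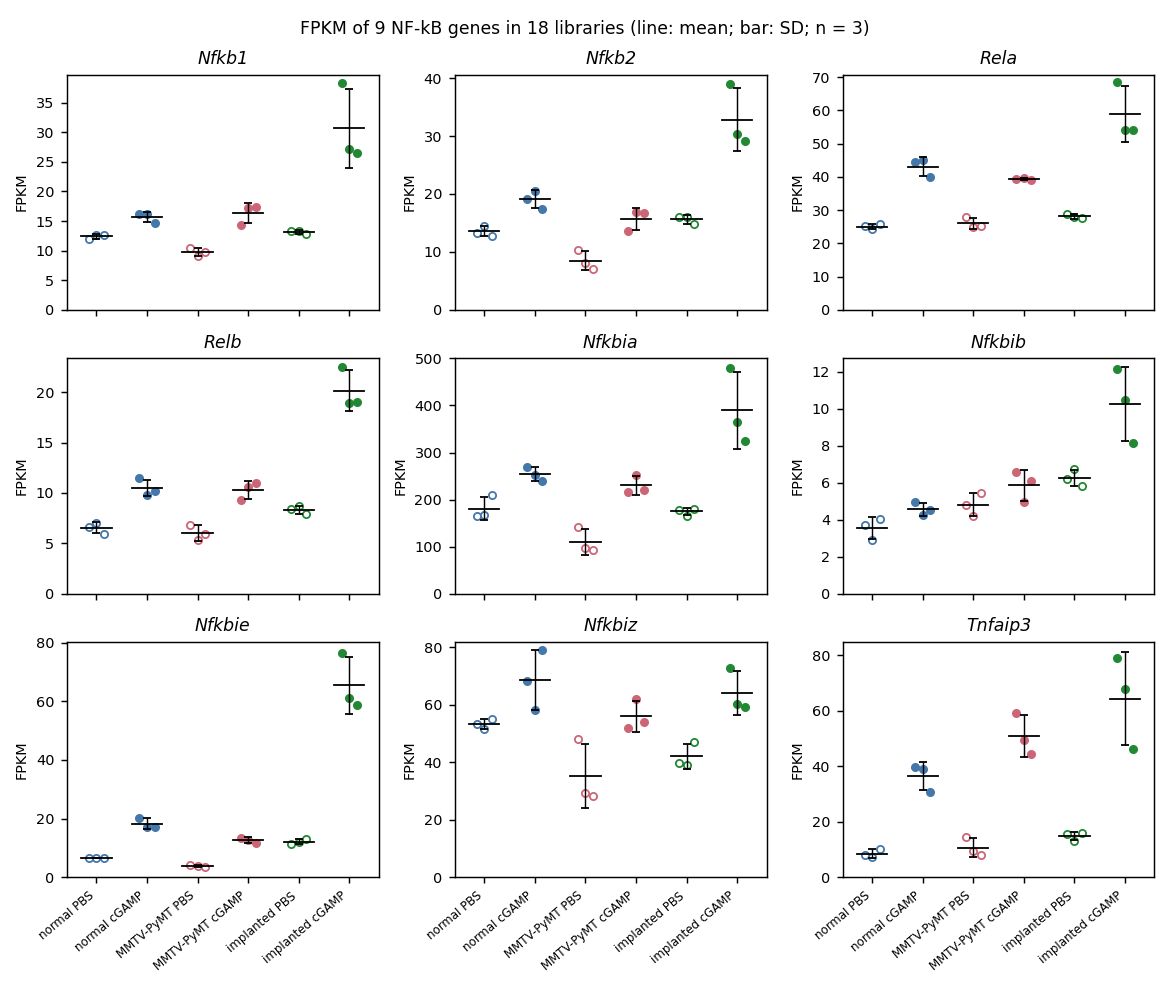
FPKM (vertical axes, linear from 0) of the 9 genes in the 6 groups of 3 libraries. Open points are PBS and filled points cGAMP libraries, and lines and bars give mean and SD. Implanted cGAMP libraries have the highest mean for 8 genes, and for Nfkbiz that mean is exceeded by normal cGAMP libraries.

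MMTV-PyMT ECs held less of several members than normal ECs before any agonist was given. Compared with limma on log2(FPKM + 1) under PBS, 5 of the 9 genes were lower in MMTV-PyMT than in normal ECs with Benjamini-Hochberg adjusted p under 0.05 and 1 was higher, where 26.6% of the 13983 tested genes were lower and 29.8% higher. The lower genes were Nfkb1, Nfkb2, Nfkbia, Nfkbie and Nfkbiz. Nfkb2, the precursor of the non-canonical pathway, measured 13.3, 14.5 and 12.8 FPKM in normal and 10.3, 8.13 and 7.04 FPKM in MMTV-PyMT libraries, and the groups did not overlap. Its difference was -0.63 on the log2 scale (SE 0.13, limma adjusted p = 6.01e-04). Nfkbia differed by -0.72 (0.00105), Nfkbie by -0.62 (7.88e-05) and Nfkbiz by -0.63 (0.00371), each with its limma adjusted p. Nfkb1 differed by -0.32 and Nfkbib by 0.36. Both calls were lost without any 1 of 4 libraries, namely normal PBS 2 or 3 and MMTV-PyMT PBS 2 or 3 for Nfkb1 (differences from -0.36 to -0.27 over all 18 omissions) and normal PBS 1 or 2 and MMTV-PyMT PBS 1 or 3 for Nfkbib (0.25 to 0.43). The Nfkbib call was also lost with limma-voom on recovered reads (0.38). Exons of Nfkbib overlap those of Ccer2 and Sirt2 on the opposite strand, and exons of Nfkb2 those of AC114539.1 and Psd. Since the strand setting of the counting was not stated, reads of these overlaps cannot be assigned. Markers moved between the same groups too: 6 of 10 endothelial and 5 of 8 mural and fibroblast markers were lower in MMTV-PyMT than in normal ECs, while 2 of 8 mural and fibroblast markers and 5 of 7 epithelial markers were higher and 3 of 9 leukocyte markers were lower.

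In implanted tumour ECs under PBS, Nfkbie was higher than in normal ECs where it had been lower in MMTV-PyMT ECs, and Nfkbib was higher than normal in both tumours. Of the 9 genes, 4 were higher in implanted than in normal ECs (25% of all tested genes were). None passed the test as lower, where 3305 of 13983 tested genes did. The most marked of the higher genes was Nfkbie, an IkB that binds dimers of Rel proteins. It measured 6.54, 6.62 and 6.49 FPKM in normal PBS, 4.23, 3.91 and 3.62 FPKM in MMTV-PyMT PBS and 11.4, 11.9 and 13.1 FPKM in implanted PBS libraries. The 3 tissues did not overlap, in the order MMTV-PyMT, normal, implanted. The implanted level was 0.80 above normal on the log2 scale (limma adjusted p = 7.35e-06). Tnfaip3 was 0.74 higher (0.00676), Nfkbib 0.67 (6.36e-04) and Relb 0.31 (0.0176), again with limma adjusted p. The Relb call was lost without normal PBS 3 or implanted PBS 2 (lowest difference 0.25) and when libraries were scaled by total reads (0.15). Nfkbiz was lower than in normal ECs in all 3 implanted libraries, at 39.9, 39.05 and 47.2 against 53.4, 51.7 and 55.2 FPKM, with a difference of -0.34 that missed the threshold (limma adjusted p = 0.0937). That difference passed as lower without MMTV-PyMT PBS 1 (-0.34) and with both other scalings. Of 10 endothelial markers, 4 were higher and 3 lower in implanted than in normal ECs. Of 7 epithelial markers, 3 were higher and 1 lower, of 8 mural and fibroblast markers 1 was higher and 6 lower, and of 9 leukocyte markers 0 were higher and 2 lower. The estimate for Rela passed without implanted cGAMP 1 (0.16).

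Between the tumours, 5 of the 9 genes were higher in implanted than in MMTV-PyMT ECs under PBS (20.8% of tested genes). None passed as lower, where 3446 of 13983 tested genes did. The higher genes were Nfkb1 (0.39 on the log2 scale), Nfkb2 (0.82), Relb (0.41), Nfkbia (0.68) and Nfkbie (1.42, limma adjusted p = 5.40e-08). These 3 PBS comparisons share their groups and are not independent. Without MMTV-PyMT PBS 1, in which 8 of the 9 genes were highest of their group, Nfkbiz (0.53) and Tnfaip3 (0.70) were also called. Calls were also added without implanted cGAMP 1 (Nfkbib) and without implanted cGAMP 3 (Nfkbib and Tnfaip3), and both genes were called with quantile normalization and with limma-voom. The marker lists moved between the tumours as well. Of 10 endothelial markers, 6 were higher and 1 lower in implanted than in MMTV-PyMT ECs (median 0.62 on the log2 scale), and 6 of 7 epithelial markers were lower and 0 higher (median -1.04). Of 8 mural and fibroblast markers 2 were higher and 2 lower, and of 9 leukocyte markers 1 was higher and 0 lower.

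**Figure D2:**
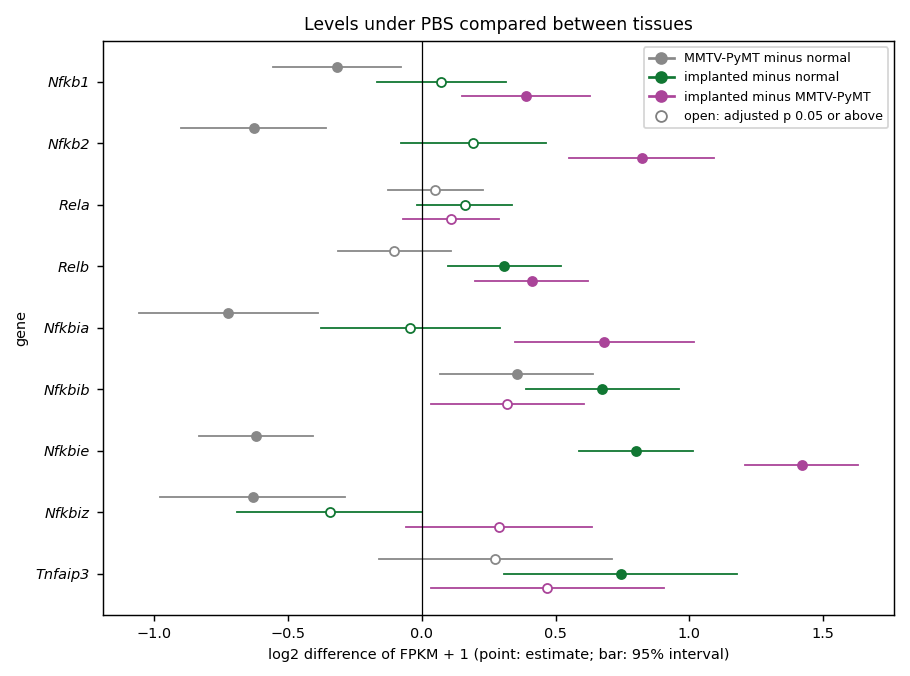
Log2 differences of FPKM + 1 between tissues under PBS (horizontal axis) for the 9 genes, with 95% intervals. Filled points passed the limma test. Nfkbie runs in the order MMTV-PyMT, normal, implanted, from -0.62 to 0.80 relative to normal.

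Injection of cGAMP was followed within 3 h by higher transcript levels of most of the 9 genes in every tissue. With limma, 7 of 9 rose in normal ECs (13.7% of all tested genes did), 8 of 9 in MMTV-PyMT ECs (7.42%) and 9 of 9 in implanted tumour ECs (20.3%). None fell. At a change of at least 2-fold, the counts were 2 (3.02% of tested genes), 3 (2.49%) and 7 (6.13%). Over the alternatives, the lowest implanted log2 changes of Nfkb1, Nfkb2, Rela, Relb and Nfkbia were 0.84, 0.69, 0.66, 0.88 and 0.62, under 2-fold. Those of Nfkbie and Tnfaip3 were 1.94 and 1.61. In MMTV-PyMT ECs, the lowest change of Nfkbia was 0.94, also under 2-fold. The median change of the 9 genes on the log2 scale was 0.49, 0.69 and 1.13, beside medians over all tested genes of -0.04, -0.04 and -0.01. All 3 cGAMP libraries lay above all 3 PBS libraries for 9 of 9 genes in normal ECs (20.9% of tested genes), for 8 of 9 in MMTV-PyMT ECs (14.8%) and for 9 of 9 in implanted tumour ECs (22.4%). Scaling by total reads moved the median of all genes to -0.14 in MMTV-PyMT and -0.25 in implanted tumour ECs, and the share of higher genes among all calls from 61.9% to 27.9% and from 52% to 22.3% (49.4% and 39.1% with quantile normalization). With total reads, 7, 8 and 8 of the 9 genes still rose, and 8, 8 and 8 with quantile normalization. The 27 estimates stayed above 0 under every alternative run.

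Among the subunits, Rela rose in all tissues. It went from 25.1, 24.2 and 25.9 to 44.5, 44.9 and 39.9 FPKM in normal ECs, from 27.8, 24.9 and 25.3 to 39.5, 39.5 and 39.2 FPKM in MMTV-PyMT ECs, and from 28.8, 28.01 and 27.5 to 68.6, 54.1 and 54.1 FPKM in implanted tumour ECs. Groups were apart in each tissue, with mean levels 1.72-fold, 1.51-fold and 2.10-fold those under PBS. On the log2 scale the changes were 0.76 (limma adjusted p = 8.18e-06), 0.58 (1.71e-04) and 1.03 (8.20e-08).

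Nfkb1, which encodes the usual partner of Rela, measured 16.1, 16.2 and 14.7 FPKM in normal cGAMP libraries against 11.97, 12.6 and 12.7 FPKM under PBS. That change of 0.31 on the log2 scale passed the test only just (limma adjusted p = 0.0443), and leaving out any 1 of 11 libraries ended the call, namely each of the 6 normal libraries, MMTV-PyMT PBS 3, MMTV-PyMT cGAMP 3 and each of the 3 implanted PBS libraries (changes from 0.29 to 0.36, highest limma adjusted p over all alternatives = 0.117). In implanted tumour ECs, Nfkb1 reached 38.3, 27.1 and 26.5 FPKM from 13.2, 13.3 and 12.8 FPKM, 2.34-fold by the means. The change there was 1.14 (limma adjusted p = 7.93e-07), and in MMTV-PyMT ECs it was 0.68 (6.59e-04), from 10.5, 9.09 and 9.81 to 14.4, 17.3 and 17.4 FPKM. No cGAMP library of Nfkb1 overlapped with the PBS libraries of its tissue.

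The non-canonical subunits also rose in each tissue. Nfkb2 increased by 0.46, 0.82 and 1.02 on the log2 scale in normal, MMTV-PyMT and implanted tumour ECs (limma adjusted p = 0.0114, 3.30e-04 and 1.05e-05). Nfkb2 measured 19.2, 20.6 and 17.5 FPKM in normal and 13.5, 16.8 and 16.8 FPKM in MMTV-PyMT cGAMP libraries. Its implanted cGAMP libraries held 39.00, 30.4 and 29.1 FPKM against 16.1, 15.9 and 14.8 FPKM under PBS. Relb increased by 0.61, 0.69 and 1.18 (limma adjusted p = 2.88e-04, 1.68e-04 and 1.24e-07). Relb measured 11.4, 9.84 and 10.2 FPKM in normal, 9.26, 10.6 and 11.03 FPKM in MMTV-PyMT and 22.5, 18.9 and 19.00 FPKM in implanted cGAMP libraries, from 6.65, 7.01 and 5.94, from 6.86, 5.34 and 5.88 and from 8.40, 8.66 and 7.87 FPKM under PBS. The implanted libraries were above the other cGAMP libraries for both genes. Normal and MMTV-PyMT cGAMP libraries overlapped for Relb but not for Nfkb2.

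**Figure D3:**
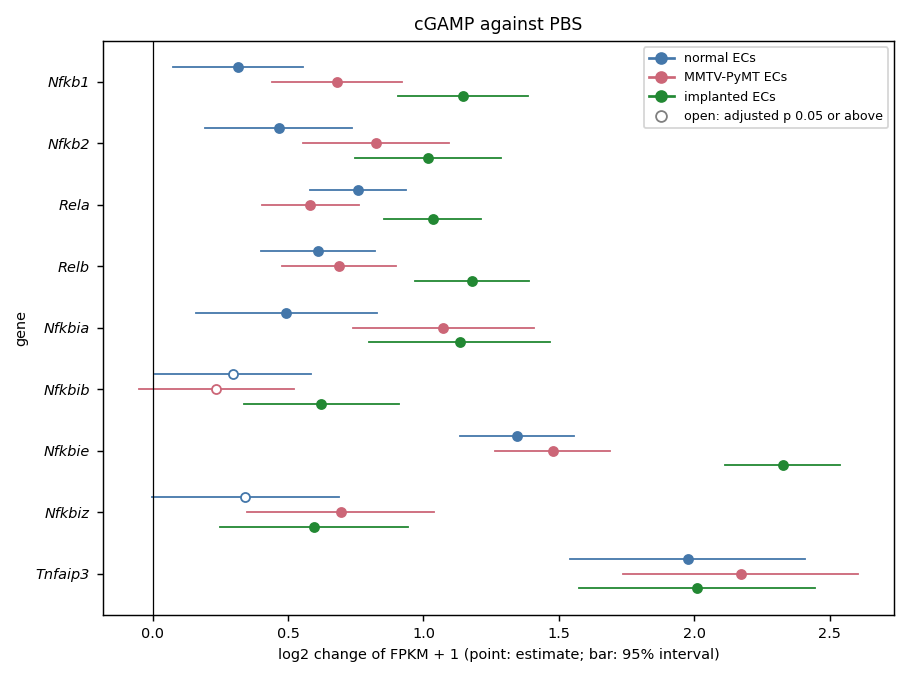
Log2 change of FPKM + 1 with cGAMP against PBS (horizontal axis) for the 9 genes in normal, MMTV-PyMT and implanted tumour ECs, with 95% intervals. Filled points passed the limma test. Tnfaip3 lies near 2 in the 3 tissues, and Nfkbie lies at 2.33 in implanted tumour ECs.

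The strongest responses were those of the feedback genes Tnfaip3 and Nfkbie. Tnfaip3 rose from 8.24, 7.23 and 10.2 to 39.8, 38.9 and 30.9 FPKM in normal ECs, from 14.7, 9.40 and 8.23 to 59.2, 49.5 and 44.4 FPKM in MMTV-PyMT ECs and from 15.8, 13.1 and 15.9 to 79.05, 67.9 and 46.4 FPKM in implanted tumour ECs. The libraries of the 2 treatments were far apart in each tissue, at 4.27-fold, 4.73-fold and 4.32-fold by the means. On the log2 scale these were 1.98, 2.17 and 2.01 (limma adjusted p = 3.92e-06, 1.29e-06 and 1.12e-06), which placed the gene at rank 82, 105 and 226 of 13983 tested genes by its change.

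Nfkbie rose from 6.54, 6.62 and 6.49 to 20.4, 17.2 and 17.1 FPKM in normal ECs. In MMTV-PyMT ECs it rose from 4.23, 3.91 and 3.62 to 13.5, 12.8 and 11.7 FPKM, and in implanted tumour ECs from 11.4, 11.9 and 13.1 to 76.5, 61.1 and 58.6 FPKM. All cGAMP groups stood apart from one another, with MMTV-PyMT lowest and implanted highest. The changes were 1.35, 1.48 and 2.33 on the log2 scale (limma adjusted p = 9.99e-08, 2.14e-08 and 7.89e-11), or 2.79-fold, 3.24-fold and 5.38-fold by the mean FPKM.

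Nfkbia, despite its high level under PBS, rose to 269, 253 and 239.7 FPKM in normal, 216, 253 and 221 FPKM in MMTV-PyMT and 480.3, 365 and 324 FPKM in implanted cGAMP libraries. Normal and MMTV-PyMT cGAMP libraries overlapped, and implanted libraries lay above both. The changes were 0.49, 1.07 and 1.13 on the log2 scale (limma adjusted p = 0.0256, 1.98e-04 and 3.06e-05). The call in normal ECs was lost without normal PBS 1 or 2 or normal cGAMP 1 or 2 (lowest change 0.43, highest limma adjusted p over all alternatives = 0.0886).

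Nfkbib had the smallest change in normal and MMTV-PyMT ECs, and Nfkbiz the smallest in implanted tumour ECs. Nfkbib, an IkB not known for strong feedback induction, measured 4.95, 4.26 and 4.50 against 3.71, 2.92 and 4.04 FPKM in normal ECs and 6.55, 4.93 and 6.07 against 4.79, 4.21 and 5.44 FPKM in MMTV-PyMT ECs. The normal groups were apart and the MMTV-PyMT groups overlapped, with changes of 0.30 (limma adjusted p = 0.107) and 0.23 (0.287) that did not pass. In implanted tumour ECs it rose from 6.17, 6.72 and 5.83 to 12.1, 10.5 and 8.15 FPKM, a change of 0.62 (limma adjusted p = 0.00173). Nfkbiz, an atypical nuclear IkB that acts on secondary response genes, measured 53.4, 51.7 and 55.2 FPKM under PBS and 68.2, 58.3 and 79.01 FPKM with cGAMP in normal ECs. It went from 48.03, 29.2 and 28.3 to 51.9, 62.01 and 54.02 FPKM in MMTV-PyMT ECs and from 39.9, 39.05 and 47.2 to 72.7, 60.2 and 59.4 FPKM in implanted tumour ECs. Treatments did not overlap in any of the 3 tissues. Its changes on the log2 scale were 0.34 in normal ECs (limma adjusted p = 0.123, not passed), 0.69 in MMTV-PyMT ECs (0.0108) and 0.60 in implanted tumour ECs (0.00865). The MMTV-PyMT call was lost without MMTV-PyMT PBS 2 or 3 or MMTV-PyMT cGAMP 2 (lowest change 0.56) or with the 6 MMTV-PyMT libraries alone. The normal change passed without MMTV-PyMT PBS 1, at 0.34, and with the 6 normal libraries alone. With quantile normalization, Nfkbib also passed in normal ECs (0.35). Scaling by total reads (0.28) and quantile normalization (0.22) ended the implanted call of Nfkbiz.

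Whether the response differed between tissues was tested as a difference of the cGAMP effects. The differences that passed were in subunits and Nfkbie, each with the larger effect in the implanted tumour. Of the 9 genes, 4 had a larger effect in implanted than in normal ECs (12.5% of all tested genes did), and 3 had a larger effect in implanted than in MMTV-PyMT ECs (7.34%). None had a smaller one, where 851 and 520 of 13983 tested genes did. The effects in MMTV-PyMT and normal ECs differed for 0 of the 9 genes by limma (5.48% of tested genes had a larger effect in MMTV-PyMT ECs), with 2 at an unadjusted p under 0.05 and 0 with limma-voom on recovered reads. Scaling by total reads called 1, Rela, with a smaller effect in MMTV-PyMT ECs (-0.30). These comparisons share PBS and cGAMP groups. No difference reached 2-fold.

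Nfkbie had the largest difference. Its effect was 0.98 larger on the log2 scale in implanted than in normal ECs (SE 0.14, limma adjusted p = 2.06e-04) and 0.85 larger than in MMTV-PyMT ECs (SE 0.14, limma adjusted p = 0.00114). Both calls held under every alternative at the adjusted p, at values from 0.51 to 1.06 and from 0.47 to 0.92. Nfkb1 had a larger effect in implanted than in normal ECs by 0.83 (limma adjusted p = 0.00196), which also held under every alternative at the adjusted p, from 0.52 to 0.92.

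For the other subunits, the differences depended on the scaling, the pseudocount, the model or single libraries. Relb differed by 0.57 from normal ECs (limma adjusted p = 0.00980) and by 0.49 from MMTV-PyMT ECs (0.0327). Rela differed from MMTV-PyMT ECs by 0.45 (0.0215) and Nfkb2 from normal ECs by 0.55 (0.0435). All of these calls were lost when libraries were scaled by total reads or quantile-normalized. The Nfkb2 call and the Relb call against MMTV-PyMT ECs were also lost with a pseudocount of 0.1 (0.57 and 0.50) and with limma-voom (0.52 and 0.44). Without MMTV-PyMT PBS 1, the differences of Rela (0.40) and Relb (0.41) from MMTV-PyMT ECs did not pass. The latter was also lost without MMTV-PyMT PBS 3, MMTV-PyMT cGAMP 1, implanted PBS 1 or 3, or implanted cGAMP 1 (lowest 0.41). The Nfkb2 call was lost without any 1 of 11 libraries (lowest difference 0.42), which were normal PBS 1, 2 and 3, normal cGAMP 1 and 3, MMTV-PyMT PBS 2, MMTV-PyMT cGAMP 3, implanted PBS 1, 2 and 3, and implanted cGAMP 1.

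Nfkbia, Nfkbib, Nfkbiz and Tnfaip3 gave no difference that passed. For Tnfaip3, the difference between implanted and normal ECs was 0.03 with a 95% interval from -0.58 to 0.65, and between implanted and MMTV-PyMT ECs -0.16 (-0.78 to 0.45). The intervals are too wide to call the effects alike. Nfkbia had a difference of 0.64 from normal ECs in the implanted tumour and of 0.58 in the MMTV-PyMT tumour (limma adjusted p = 0.0564 and 0.121). Both passed without MMTV-PyMT PBS 1, at 0.64 and 0.77, and the former also without implanted cGAMP 3 (0.76) and among genes with a mean of at least 5 FPKM. Nfkb1 passed in the MMTV-PyMT against normal comparison without implanted cGAMP 1 (0.37) and in the implanted against MMTV-PyMT comparison without implanted cGAMP 2 or 3 (highest 0.55).

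**Figure D4:**
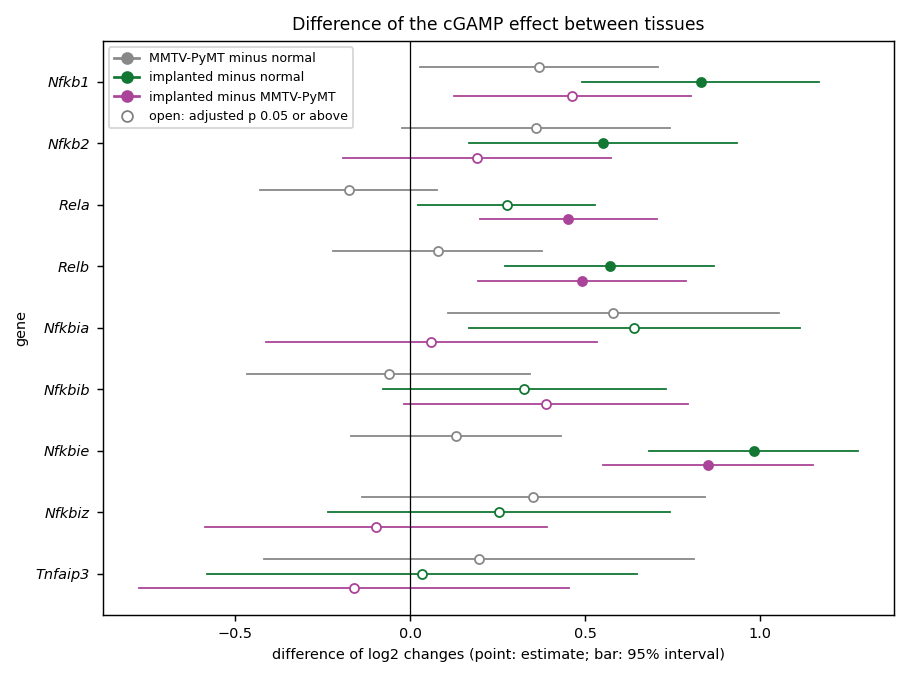
Difference of the log2 cGAMP effect between tissues (horizontal axis) for the 9 genes, with 95% intervals. Filled points passed the limma test. The filled points are Nfkb1, Nfkb2, Relb and Nfkbie for implanted minus normal and Rela, Relb and Nfkbie for implanted minus MMTV-PyMT, and all lie above 0.

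The implanted cGAMP libraries behind these differences were not uniform. Implanted cGAMP 1 was the highest of its group for all 9 genes. It also had the highest endothelial sum of all libraries (1874 FPKM) and the lowest epithelial sum (273 FPKM). Implanted cGAMP 2, with the highest leukocyte sum, was the lowest of its group for 1 of the 9 genes, and implanted cGAMP 3 was the lowest for 8. Mural and fibroblast sums in the implanted cGAMP group ranged from 349.6 to 773 FPKM against 389 to 400.5 FPKM under PBS. By the test, 2 of 9 leukocyte and 3 of 8 mural and fibroblast markers rose with cGAMP in the implanted tumour, beside 20.3% of all tested genes. There, 0 of 10 endothelial and 0 of 7 epithelial markers rose, and 1 endothelial and 1 epithelial marker fell (18.8% of tested genes fell). In normal ECs no marker rose (13.7% of tested genes did), and 2 endothelial and 1 mural and fibroblast marker fell (18.2%). In MMTV-PyMT ECs no marker passed in either direction, where 7.42% of tested genes rose and 4.57% fell. With implanted cGAMP 1 left out, 9 of 9 genes still rose in implanted tumour ECs and the Nfkbie change was 2.21 on the log2 scale.

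The make-up of the inhibitor pool changed along with its size. The summed FPKM of Nfkbia, Nfkbib and Nfkbie divided by that of the 4 subunits was 3.32 ± 0.448 (mean ± SD, n = 3) in normal PBS, 3.13 ± 0.118 in normal cGAMP, 2.35 ± 0.326 in MMTV-PyMT PBS and 3.04 ± 0.190 in MMTV-PyMT cGAMP libraries. In the implanted tumour it was 2.97 ± 0.181 under PBS and 3.25 ± 0.190 with cGAMP. Libraries of the 2 treatments overlapped in normal and implanted tumour ECs, and the MMTV-PyMT PBS libraries lay below their cGAMP counterparts. The Nfkbie share of the 3 inhibitors' FPKM was 3.47 ± 0.450% in normal PBS and 6.58 ± 0.346% in normal cGAMP libraries. In MMTV-PyMT ECs it was 3.36 ± 0.494% and 5.13 ± 0.535%, and in implanted tumour ECs 6.30 ± 0.412% and 14.2 ± 0.799%. Every cGAMP library exceeded the PBS libraries of its tissue in this share. Transcripts of Tnfaip3 per transcript of Nfkbia, as a ratio of FPKM, went from 0.0472 ± 0.00354 to 0.144 ± 0.0130 in normal, from 0.0965 ± 0.00762 to 0.224 ± 0.0439 in MMTV-PyMT and from 0.0853 ± 0.00567 to 0.165 ± 0.0214 in implanted tumour ECs. These ratios within a library do not depend on its scaling and are given without a test.

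**Figure D5:**
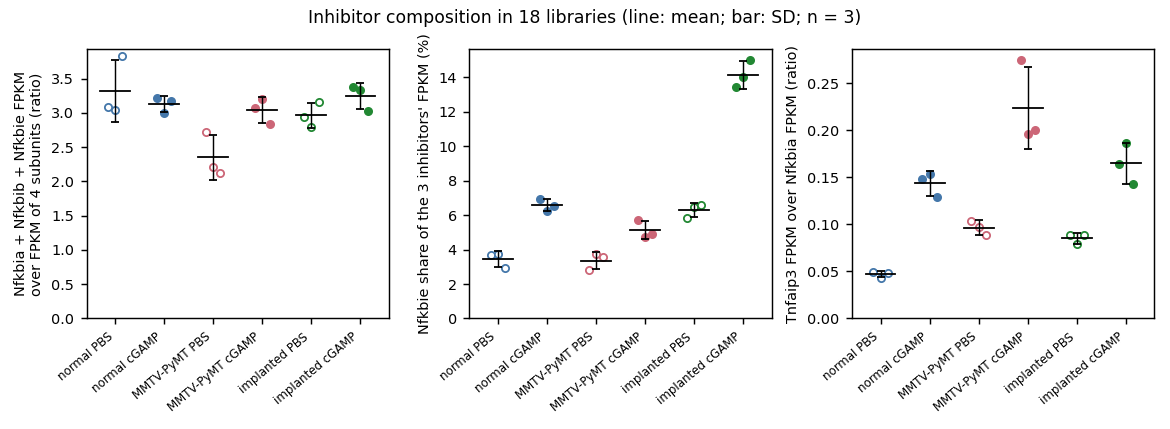
Ratio of the summed FPKM of 3 IkB genes to that of 4 subunits (left), Nfkbie share of the 3 IkB genes' FPKM in percent (middle) and ratio of Tnfaip3 to Nfkbia FPKM (right) in each library, open for PBS and filled for cGAMP, with mean and SD. The Nfkbie share reaches 14.2 ± 0.799% in implanted cGAMP libraries.

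Other genes of the pathway were counted by lists. Of 14 NF-kB target genes, 10 rose in normal ECs, 11 in MMTV-PyMT ECs and 12 in those of the implanted tumour, with median log2 changes of 0.99, 1.33 and 2.09, and none fell. Ccl2, a chemokine for monocytes, rose from 0.893, 0.667 and 1.38 to 28.2, 65.8 and 27.2 FPKM in normal, from 1.59, 1.38 and 0.899 to 64.2, 90.1 and 57.2 FPKM in MMTV-PyMT and from 3.29, 1.98 and 2.93 to 401, 166 and 134 FPKM in implanted tumour ECs. Every cGAMP library was far above every PBS library, and implanted cGAMP 1 was the highest of all. The adhesion molecule Vcam1 rose by 0.996, 3.44 and 3.42 on the log2 scale, and the cytokine Il6 by 2.54, 2.46 and 3.23 (highest limma adjusted p of the 6 = 0.00600).

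The remaining family genes Rel and Bcl3 rose in the 3 tissues and Nfkbid in the implanted tumour, so that 2, 2 and 3 of 3 passed. Bcl3, an atypical IkB that joins dimers in the nucleus, rose by 1.26, 1.11 and 0.95 on the log2 scale in normal, MMTV-PyMT and implanted tumour ECs. Rel rose by 0.76, 0.61 (limma adjusted p = 0.0458) and 0.94. Nfkbid measured 5.02, 4.52 and 5.35 FPKM under PBS and 10.3, 10.2 and 6.78 FPKM with cGAMP in the implanted tumour, a change of 0.74. The Rel call in MMTV-PyMT ECs was lost with any 1 of 11 libraries left out, namely normal PBS 1, 2 or 3, normal cGAMP 3, MMTV-PyMT PBS 2 or 3, any MMTV-PyMT cGAMP library, or implanted PBS 2 or 3 (lowest change 0.50), and with no filter or scaling by total reads. The Nfkbid call was lost without implanted PBS 1 or 2 or implanted cGAMP 1 or 2 (lowest 0.65), and with scaling by total reads (0.46).

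Of 17 genes for the kinases and their activators, 6 rose and 2 fell in normal, 3 rose and 1 fell in MMTV-PyMT, and 10 rose and 2 fell in implanted tumour ECs, with medians of 0.15, -0.03 and 0.32 on the log2 scale. Of all tested genes, 18.2%, 4.57% and 18.8% fell. Ikbkg, the regulatory subunit of the kinase complex, was among the falls in normal and implanted tumour ECs. Birc2, Ripk1 and Rnf31 rose in each tissue. Rnf31, the catalytic part of the linear ubiquitin ligase, rose by 0.92, 1.88 and 2.03 in normal, MMTV-PyMT and implanted tumour ECs. Birc2, a ubiquitin ligase of the TNF receptor complex, rose by 0.59, 0.66 and 1.62, and the kinase Ripk1 by 0.70, 0.74 and 0.71. Of 11 other negative regulators, 10 were tested, and 4, 2 and 7 of them rose and 0 fell in normal, MMTV-PyMT and implanted tumour ECs, with medians of 0.15, 0.04 and 0.62. Tnip1, a binding partner of the Tnfaip3 protein, measured 23.1, 20.04 and 21.4 FPKM in implanted PBS and 159, 78.3 and 89.3 FPKM in implanted cGAMP libraries, with implanted cGAMP 1 well above the others. Tnip1 rose by 0.78, 1.19 and 2.22 on the log2 scale in normal, MMTV-PyMT and implanted tumour ECs, and N4bp1 by 1.23, 1.43 and 1.62. The RNase Zc3h12a rose by 0.65 in normal and 0.58 in implanted tumour ECs, with 0.47 in MMTV-PyMT ECs (limma adjusted p = 0.113, not passed). Its normal call was lost without normal PBS 2 (0.53) or normal cGAMP 3, its implanted call without implanted PBS 1 or 2 or implanted cGAMP 1 or 2 (lowest 0.49) or with either other scaling, and the MMTV-PyMT change passed without MMTV-PyMT PBS 1 (0.68). Each list stands beside background shares of 13.7%, 7.42% and 20.3% of tested genes that rose.

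Levels of the 9 genes were correlated with one another over the 18 libraries, which share tissues and treatments. Pearson correlations of log2(FPKM + 1) for the 36 pairs ranged from 0.191 to 0.973, with a median of 0.845. The lowest belonged to Nfkbib and Nfkbiz and the highest to Nfkb1 and Relb. Among all other tested genes, the most similar to Rela were Stx11 (0.992) and Jak2 (0.990), and the most similar to Tnfaip3 were N4bp1 (0.979) and Zcchc2 (0.978). Nfkbia was nearest to Vcam1 (0.974) and Gm8995 (0.970), Nfkbie to Snx10 (0.984) and Hdac1 (0.981), and Nfkb2 to Trim30a (0.975) and Snx10 (0.973). Nfkb1 was nearest to Rbms2 (0.984) and Tdrd7 (0.984), and Relb to Ifi204 (0.988) and Cox18 (0.983). The nearest genes to Nfkbib and Nfkbiz had lower correlations. These were Fgfr1 (0.950) and Edem1 (0.948) for Nfkbib and 1700001K19Rik (0.918) and 9330104G04Rik (0.918) for Nfkbiz. The correlations describe these libraries and carry no test.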

How the data were processed

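RNA of sorted ECs was measured in 18 libraries (6 groups of 3). Per the labels and the study's methods, the authors sequenced 75-base read pairs on a NextSeq 500, aligned them with STAR 2.7 to mm10 and counted with HTSeq-count 0.6.1. The deposited values are FPKM for 16248 genes in 18 columns. How the authors computed FPKM, and the strand setting of the counting, were not given in the sources used here. Up to a common factor, the library scaling matched median-of-ratios size factors to within 5.98e-10%. Such a factor is the median ratio of a library's reads to the geometric mean over libraries. In reads, the scaling factor was 0.735 times the recovered total in implanted cGAMP 1 and 1.15 times in normal PBS 1. Of the columns, 12 name the tumour. The other 6 carry the treatment alone and were taken as normal ECs, the tissue no other column name held.

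The FPKM steps gave whole reads for 100.0% of genes (tolerance 0.02 reads), with 9184658 to 12200551 reads per library. A single read on 1 kb is worth 0.0753 to 0.1196 FPKM, which limits precision most for Nfkbib, with 75 to 220 reads per library. Replicates of a group were checked pairwise, and every pair differed by more than sampling noise.

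limma 3.58.1 (R 4.3.3, trend, 2-sided, 12 residual degrees of freedom) was fitted to log2(FPKM + 1), with 1 mean per group, for the 13983 genes with at least 1 FPKM in at least 3 libraries. The pseudocount understates changes of low genes. P-values of the 9 comparisons were each adjusted over all tested genes by Benjamini-Hochberg, and a gene passed at an adjusted p under 0.05. The script was tested on simulated data. Levels of the 9 genes were tabulated with Python 3.11.15 and pandas 2.3.3.

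The 9 genes and the lists were chosen with earlier results of these data known. Named from each of 4 pathway lists were the 3 genes with the largest absolute log2 change summed over tissues among those that passed at least once, and for each of the 9 genes the 2 tested genes with the highest Pearson correlation. Markers of adipocytes (4 genes) and Itgam of the leukocyte list had no row in the expression table, so they were not analysed here. Alternatives were another pseudocount (0.1), no filter, a mean of at least 5 FPKM, scaling by total reads, quantile normalization, limma-voom on recovered reads, a replicate block, the 6 libraries of 1 tissue alone, a 2-fold limit and leaving out each library.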

Additional observations from a re-analysis of the deposited data

Results flagged for a closer look

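The cGAMP effect differed between tissues, by the limma test of the difference itself (Benjamini-Hochberg adjusted p under 0.05), for some of the 9 genes. It was larger in implanted than in normal ECs for 4 of the 9 and than in MMTV-PyMT ECs for 3. Between MMTV-PyMT and normal ECs, 0 of the 9 passed. Over these comparisons together, 5 of the 9 genes and 5 of the other pathway genes named in the report passed at least once. The share of all tested genes that passed at least once was not counted. Of all tested genes, 12.5% had a larger effect in implanted than in normal ECs. The shares were 7.34% for implanted above MMTV-PyMT ECs and 5.48% for MMTV-PyMT above normal ECs. The other pathway genes were named for large cGAMP changes in these data, so their count is over a chosen set. Differences are on the log2 scale, and the cause was not tested.

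Larger effects in implanted tumour than in normal ECs were found for Nfkb1 (0.83), Nfkb2 (0.55), Relb (0.57) and Nfkbie (0.98). Among the other genes, the differences were 1.03 for Birc2, 1.11 for Rnf31, 1.44 for Tnip1, 2.42 for Vcam1 and 1.54 for Ccl2, the last just past the threshold (limma adjusted p = 0.0458).

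Larger effects in implanted than in MMTV-PyMT tumour ECs were found for Rela (0.45), Relb (0.49), Nfkbie (0.85), Birc2 (0.96) and Tnip1 (1.04). The calls of Rela and Relb, and those of Nfkb2 and Relb against normal ECs, were lost with scaling by total reads or quantile normalization. The differences of Birc2, Rnf31, Tnip1, Vcam1 and Ccl2 were not rerun under the alternatives. Rnf31 (0.96) and Vcam1 (2.45) had a larger effect in MMTV-PyMT than in normal ECs. Vcam1 started from 2.86, 1.70 and 1.68 FPKM in MMTV-PyMT PBS libraries against 14.4, 18.3 and 17.9 FPKM in normal PBS libraries.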

How the results depend on the processing

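Of 2052 values of the 9 genes under the alternatives (81 results), 1929 kept direction and side of the threshold, 64 lost the threshold, 25 gained it and 34 changed sign, none of these a cGAMP effect within a tissue. All that changed sign missed the threshold in the fit reported. The cause was not tested. The planned edgeR test was not run, since the values are FPKM and not counts, and limma-voom on recovered reads was used in its place.

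With a 2-fold limit, 2 of the 9 genes passed in normal and 3 in MMTV-PyMT ECs, 0 for each difference between implanted and another tissue, 0 under PBS for MMTV-PyMT or implanted against normal, and 1 for implanted against MMTV-PyMT. With scaling by total reads, the effect differences called were 1 (MMTV-PyMT against normal), 2 (implanted against normal) and 1 (implanted against MMTV-PyMT), and with quantile normalization 2 and 1 for the latter pair. Leaving out 1 library gave 0 to 1 genes for MMTV-PyMT against normal (1 without MMTV-PyMT PBS 1, Nfkbia, or without implanted cGAMP 1, Nfkb1) and 1 to 4 for implanted against MMTV-PyMT (1 without MMTV-PyMT PBS 1, Nfkbie). The replicate numbers did not pair the libraries (correlations of same-numbered deviations averaged -0.0231), and a replicate block called 6 instead of 7 genes in normal ECs, where Nfkb1 was lost, and 6 instead of 5 between tumours under PBS.

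Log2 values of the opposite sign for the effect difference of MMTV-PyMT minus normal were Relb -0.040 (total reads) and Relb -0.0023 (quantile). Log2 values of the opposite sign for that of implanted minus normal were Tnfaip3 -0.013 (pseudocount 0.1) and Rela -0.033, Nfkbiz -0.053, Tnfaip3 -0.29 (total reads) and Rela -0.088, Nfkbiz -0.055, Tnfaip3 -0.46 (quantile) and Tnfaip3 -0.066 (limma-voom). Log2 values of the opposite sign for that of implanted minus MMTV-PyMT were Nfkbia -0.12 (total reads) and Nfkb2 -0.12, Nfkbia -0.34 (quantile) and Nfkbia -0.012 (limma-voom). Log2 values of the opposite sign for the PBS level of MMTV-PyMT minus normal were Rela -0.047 (quantile) and Rela -0.023 (limma-voom). Log2 values of the opposite sign for the PBS level of implanted minus normal were Nfkb1 -0.10, Rela -0.018 (total reads) and Nfkb1 -0.0027 (quantile). Log2 values of the opposite sign for the PBS level of implanted minus MMTV-PyMT were Rela -0.045 (total reads). With 1 library left out, the sign changed at least once for Nfkbid in the effect in normal ECs (-0.36 to 0.28), Nfkbib in the effect difference of MMTV-PyMT minus normal (-0.14 to 0.043), Tnfaip3 in the difference of implanted minus normal (-0.13 to 0.25), Nfkbia in the difference of implanted minus MMTV-PyMT (-0.13 to 0.18), Nfkbiz in the difference of implanted minus MMTV-PyMT (-0.34 to 0.033), Tnfaip3 in the difference of implanted minus MMTV-PyMT (-0.39 to 0.054) and Nfkbia in the PBS level of implanted minus normal (-0.10 to 0.067). Depth limits mainly Nfkbib, with 75 to 220 reads per library, and Nfkbie, with 129 to 1947.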

Other observations

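The subunit mix was computed within each library. Rela made up 50.2, 52.5 and 52.7% of the summed FPKM of the 4 subunits in MMTV-PyMT PBS libraries, 44.04, 41.5 and 45.2% in normal PBS and 43.3, 42.5 and 43.7% in implanted PBS libraries. With cGAMP the share was 51.5, 46.9 and 46.4% in MMTV-PyMT, 48.7, 49.1 and 48.5% in normal and 40.7, 41.5 and 42.1% in implanted cGAMP libraries. Every normal cGAMP library had a higher Rela share than every normal PBS library, and every implanted cGAMP library a lower one than every implanted PBS library. The ratio of Nfkb2 to Nfkb1 FPKM was 0.982, 0.895 and 0.718 in MMTV-PyMT PBS, 1.11, 1.15 and 1.01 in normal PBS and 1.21, 1.19 and 1.16 in implanted PBS libraries. These ratios are given as the 3 libraries of each group, with no test.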
